A study of Mus musculus with 6 samples.

Results

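Arginine synthesis and polyamine metabolism were followed through 10 genes of the deposited expression table, which lists 37224 genes: Ass1, Asl, Arg2, Odc1, Amd1, Srm, Sms, Sat1, Oaz1 and Azin1. They were picked by symbol, and all 10 had a row. RNA-seq had been run on primary mouse embryonic fibroblasts (MEF, connective tissue cells cultured from embryos) of the C57BL/6 background, wild type or Dot1L-/-, here called Dot1L null. Dot1L is the enzyme that methylates histone H3 at lysine 79. Cells of each genotype were either left untreated, at 0 μM, or exposed for 24 h to sodium arsenite, a salt of trivalent arsenic. The labels call the dose low, and the treatment protocol lists 5 and 10 μM without saying which was sequenced. Each of the 4 groups held 1 library, and neither the number of cell isolates behind a library nor the way the null allele was made is given in the sources used here. A further 2 libraries, of acetylated lysine 27 of histone H3 in wild-type cells, were not analysed here.

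Cells make arginine from citrulline and aspartate by the successive action of argininosuccinate synthase and argininosuccinate lyase. Arginase splits arginine into urea and ornithine, and ornithine decarboxylase turns ornithine into putrescine, the first polyamine. Spermidine and spermine are then built from putrescine with aminopropyl groups from decarboxylated S-adenosylmethionine. Antizyme, made when polyamines are plentiful, binds ornithine decarboxylase and sends it to the proteasome, and antizyme inhibitor binds antizyme and so spares the enzyme. Polyamines are small cations that bind RNA and DNA, and growing fibroblasts depend on them.

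Levels are in RPKM, read counts corrected for gene length and depth, so they are per length and can be set side by side between genes. Differences are in log2(RPKM + 1), which understates them for low genes, and a gene was called higher or lower at 2-fold on it. The ranges in parentheses are 95% intervals of a ratio, from reads recovered from the RPKM values, and cover counting error only. Control libraries are also called untreated and arsenite libraries treated. With 1 library per group no difference could be set against replicate error, and no p-value was computed. Each library also stands for its own culture and preparation, so the group and the library cannot be told apart.

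The libraries differed in ways that touch every result. Depth was 62972880 reads in untreated wild type and 64699847 in the untreated null, which is 5.81 and 5.45 times that of the arsenite library of the same genotype. Between libraries the median difference over the 12588 genes with at least 1 RPKM in any library was −0.56 for arsenite in wild type, −0.53 for arsenite in the null, −0.17 for null against wild type in controls and −0.28 with arsenite. Arsenite differences also ran with gene length, long genes being lower, so each is also given after the length trend was removed. Dot1l itself was at 30.4 RPKM in untreated wild type and 9.59 in the untreated null. Hmox1, the arsenite-responsive heme oxygenase, was at 82.4 and 416 RPKM without and with arsenite in wild type, and at 405 and 618 in the null. Of 11 fibroblast markers 9 reached 1 RPKM in some library, while Thy1 was listed at 0 in all 4 and Lum was under 0.05. Several of these markers differed in level between untreated wild type and the untreated null. Col1a1 was at 335 and 133 RPKM, Col3a1 at 135 and 12.9 and Dcn at 60.7 and 19.4, with Vim also lower in the null. Pdgfrb was nearly level, at 58.0 and 56.6. Col1a2 at 64.2 and 206 and Fn1 at 565 and 1411 were higher in the null, as were Pdgfra and S100a4. Because these are bulk samples, fewer cells of a type and less RNA per cell cannot be told apart.

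Promoter sequence from RefSeq (GRCm38.p6) was matched for 6 of the 10 genes: Ass1, Amd1, Oaz1, Odc1, Sat1 and Sms. The stretches upstream of Ass1, which differed most between genotypes, and of Odc1, Amd1 and Sat1, which were at least 2-fold lower with arsenite in the null but not in wild type, are shown 5′ to 3′ on the gene's strand. Capitals mark CACGTG, the E-box letters read by MYC and related factors, and GGGCGG or its reverse complement CCGCCC, the GC box letters.
Ass1 (chr2:31470020-31470269, plus strand): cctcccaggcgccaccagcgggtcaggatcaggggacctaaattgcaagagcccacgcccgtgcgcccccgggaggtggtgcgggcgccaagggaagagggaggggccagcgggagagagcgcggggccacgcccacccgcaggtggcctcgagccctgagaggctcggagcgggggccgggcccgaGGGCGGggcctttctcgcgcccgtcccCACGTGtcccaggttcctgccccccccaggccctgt
Odc1 (chr12:17544623-17544807, plus strand): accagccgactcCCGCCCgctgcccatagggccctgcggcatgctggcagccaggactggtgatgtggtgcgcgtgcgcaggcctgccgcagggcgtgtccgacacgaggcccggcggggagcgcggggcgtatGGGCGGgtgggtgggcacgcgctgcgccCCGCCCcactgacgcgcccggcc
Amd1 (chr10:40302189-40302438, minus strand): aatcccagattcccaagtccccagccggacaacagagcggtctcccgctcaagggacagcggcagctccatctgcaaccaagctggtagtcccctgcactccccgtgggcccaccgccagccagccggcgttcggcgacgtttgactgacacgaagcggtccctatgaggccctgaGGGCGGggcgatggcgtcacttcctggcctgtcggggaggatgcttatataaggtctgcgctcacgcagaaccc
Sat1 (chrX:155216450-155216699, minus strand): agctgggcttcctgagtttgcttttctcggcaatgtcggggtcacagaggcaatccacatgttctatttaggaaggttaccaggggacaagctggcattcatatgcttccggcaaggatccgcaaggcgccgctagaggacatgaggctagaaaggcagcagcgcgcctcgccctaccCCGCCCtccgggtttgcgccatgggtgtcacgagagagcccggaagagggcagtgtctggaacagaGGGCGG

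All 4 stretches, of which that of Odc1 has 185 bases, held the GC box letters. Of 32851 promoter windows of 250 bases, 32.7% held them on either strand. They are not particular to these 4 genes, as Sms also held them in 1 of its 2 windows, while Oaz1 did not. CACGTG was present upstream of Ass1, 36 bases before the start site, and in 1 of the 2 windows of Sms, 196 bases before it, against 6.02% of all windows. TGACNNNGC, the core letters of the antioxidant response element, was found before Oaz1 alone among these 6 genes and in 10.2% of all windows. None of the 6 held TGATGNAA, TATAAA or TGACGTCA in the searched bases, which 3.45%, 12.4% and 1.55% of all windows held. Both strands were searched, and no 2 of the marked stretches overlap. A match describes letters only.

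Of the 2 enzymes of arginine synthesis, Ass1 differed between the genotypes by far more than any of the other 9 genes, and Asl was nearly level. Ass1 (ENSMUSG00000076441, chromosome 2, 31470270 to 31520670), which encodes argininosuccinate synthase, was at 1.45 RPKM in untreated wild type, 1.08 in treated wild type, 122 in the untreated null and 63.5 in the treated null. Both null libraries were thus above both wild-type libraries, an order whose share over all genes was not computed. The ratio of null to wild type was 84.6 (73.8 to 97.4) in controls and 58.8 (40.3 to 89.5) with arsenite. On the log2 scale these differences were 5.66 and 4.95, and 5.85 and 5.31 with the length trend removed. They placed Ass1 at rank 9 and rank 16 from the top among 12588 genes.

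The wild-type Ass1 value rested on 210 reads in the control and 27 with arsenite, and the null values on 18252 and 1741. Arsenite against control gave a ratio of 0.747 (0.481 to 1.12) in wild type, an interval that holds equality, and 0.520 (0.494 to 0.546) in the null. The null difference was −0.93 and lay inside the 2-fold bound. In wild type the difference of −0.23 turned to 0.33 once each comparison was centred on the median of all genes.

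Cells other than fibroblasts also express Ass1, among them hepatocytes, endothelium and macrophages. Hepatocyte markers, 1 of 7 of which reached 1 RPKM, summed to 0.624 RPKM in untreated wild type and 0.588 in the untreated null, with Ttr and Fgb at 0 in all libraries. Endothelial markers, 1 of 6 past 1 RPKM and Emcn at 0, summed to 1.04 and 2.23. Macrophage and leukocyte markers, 3 of 8 past 1 RPKM, summed to 23.8 and 4.81, and epithelial markers, 1 of 6 with Epcam at 0, to 3.07 and 0.337. Neural markers, 3 of 6 with Olig2 at 0, summed to 122 and 44.2. The macrophage difference was that of Cd14, at 21.1 and 1.16 RPKM, while Lyz2 at 0.0125 and 1.16 and Csf1r at 0.0683 and 0.456 were higher in the untreated null. With arsenite the sums in wild type and the null were 3.66 and 6.51 RPKM for hepatocyte, 0.153 and 0.232 for endothelial, 16.7 and 11.1 for macrophage, 1.24 and 0.319 for epithelial and 34.7 and 41.4 for neural markers. The endothelial list was split by gene in the untreated libraries. Cdh5 at 0.0677 RPKM in wild type and 1.5006 in the null, on 17 and 387 reads, was higher in the null. Tek, at 0.0674 and 0.338, was also higher there. Kdr at 0.456 and 0.00849, Pecam1 at 0.0589 and 0.0251 and Vwf at 0.390 and 0.358 were lower in the null. With arsenite Cdh5 had 0 reads in wild type and 1 in the null. The marker lists thus had no common direction between genotypes. What these markers contribute to the Ass1 difference was not tested.

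Asl (ENSMUSG00000025533, chromosome 5, 130011258 to 130024381), the lyase that releases arginine, was at 6.17 RPKM in untreated wild type, 7.14 with arsenite, 4.74 in the untreated null and 7.36 in the treated null. Its level was the higher one with arsenite in both genotypes. The ratios were 1.16 (1.03 to 1.30) and 1.55 (1.39 to 1.74), under 2-fold. Asl is a gene of 4563 bases, a length at which the trend lay at −0.91 in wild type and −0.90 in the null, and with that trend removed its differences were 1.10 and 1.44.

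Within a library the ratio of Ass1 to Asl does not depend on depth or on scaling, but its arsenite difference does depend on the length trend. In wild type and the null that trend lay at −0.17 and −0.19 for Ass1, against −0.91 and −0.90 for Asl. It was 0.234 in untreated wild type and 0.151 with arsenite, against 25.8 in the untreated null and 8.63 in the treated null. The lyase level thus exceeded the synthase level in both wild-type libraries, and the order was the opposite in both null libraries.

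Arg2 (ENSMUSG00000021125, chromosome 12, 79130788 to 79156301), the mitochondrial arginase, was the lowest of the 10 genes in 3 of the 4 libraries. It stood at 2.08 RPKM in untreated wild type, 0.259 in treated wild type, 0.141 in the untreated null and 0.118 in the treated null. These values rest on 187, 4, 13 and 2 reads, so only untreated wild type was well counted. Arg2 was called lower with arsenite in wild type, 8.04-fold (3.09 to 29.8), and lower in the untreated null than in untreated wild type, 14.8-fold (8.43 to 28.3). It reached 1 RPKM only in untreated wild type, the library that both calls are made against, so it was counted only through that library. The arsenite call was lost after median centring, at −0.73, and both calls were lost with a pseudocount of 5 RPKM, at −0.43 and −0.46. With arsenite the ratio of null to wild type was 0.456 (0.0412 to 3.18), and no difference was detectable at this depth. The span of Arg2 overlaps the end of Vti1b, and without a stated strand setting reads in the overlap could belong to either.

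Ornithine decarboxylase and its regulators came next, and here the genotypes differed in the direction or size of the arsenite difference. Odc1 (ENSMUSG00000011179, chromosome 12, 17544808 to 17551502), the rate-limiting enzyme of polyamine synthesis, was at 122 RPKM in untreated wild type and 114 with arsenite. In the null it was at 237 in the control and 50.0 with arsenite. The untreated null was the highest library and the treated null the lowest, with both wild-type libraries between them.

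For arsenite against control the Odc1 ratio was 0.928 (0.893 to 0.964) in wild type, and the level was 4.73-fold lower (4.49 to 4.98) in the null. The log2 differences were −0.11 and −2.22, or 0.18 and −1.92 without the length trend. In wild type the sign depended on scaling, being positive at 0.45 after median centring and at 0.40 after scaling to the 75th percentile. The difference between the genotypes' arsenite differences, null minus wild type, was −2.11, and 1.17% of all genes had a lower value. Between genotypes Odc1 was 1.93-fold (1.90 to 1.97) higher in the untreated null and 2.27-fold (2.13 to 2.41) lower in the treated null. The first of these, 0.95 on the log2 scale, passed the bound at 1.12 after median centring, and the second, −1.17, fell inside it at −0.88.

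**Figure D1:**
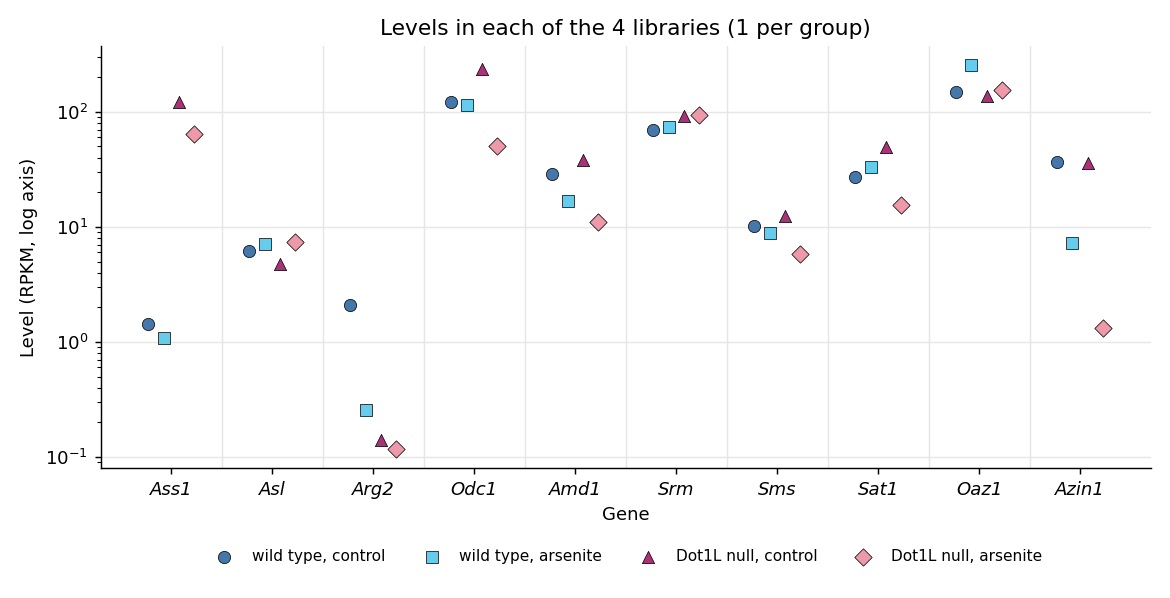
Level of each of the 10 genes in RPKM (log axis) in the 4 libraries, 1 point per library and 1 library per group, with no error bars because there are no replicates. Ass1 is near 1 RPKM in both wild-type libraries and at 122 and 63.5 RPKM in the null libraries, and Azin1 is at 1.31 RPKM in the treated null against 35.6 in its control.

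Oaz1 (ENSMUSG00000035242, chromosome 10, 80826656 to 80829290), which encodes antizyme 1, was the gene with the highest level of the 10 in 3 of the 4 libraries. Its values were 150 RPKM in untreated wild type, 254 with arsenite, 138 in the untreated null and 154 in the treated null. Only the wild-type arsenite library stood apart. The ratio for arsenite was 1.70 (1.65 to 1.74) in wild type and 1.12 (1.08 to 1.15) in the null, both under 2-fold. The wild-type difference of 0.76 became 1.32 after median centring and 1.05 with the length trend removed, past the bound in both cases.

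Azin1 (ENSMUSG00000037458, chromosome 15, 38487430 to 38519294), the antizyme inhibitor, is a homolog of ornithine decarboxylase without its enzyme activity. It was at 36.9 RPKM in untreated wild type and 35.6 in the untreated null, close to each other. With arsenite it was at 7.23 in wild type and 1.31 in the null. Both arsenite libraries were below both controls. The share of all genes in this order was not computed, and their median was also lower with arsenite in each genotype.

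The Azin1 level was 5.11-fold lower (4.67 to 5.60) with arsenite in wild type and 27.2-fold lower (22.2 to 33.5) in the null. In the null its log2 difference was −3.99, and 0.572% of all genes were lower. At 6231 bases Azin1 is the longest of the 10 genes, and the trend at that length was −1.19 in both genotypes. With the trend removed the differences were −1.02 and −2.79, still past 2-fold in both. Between the arsenite libraries the null was 5.52-fold lower (4.43 to 6.93), on 97 reads against 488.

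The balance of the ornithine decarboxylase RNA and the RNAs of its regulators can be read within a library. Odc1 stood at 0.817 times Oaz1 in untreated wild type and 0.446 times with arsenite. In the null it stood at 1.71 times in the control and 0.324 times with arsenite. Azin1 stood at 0.247 times Oaz1 in untreated wild type and 0.257 times in the untreated null, against 0.0284 and 0.00849 times with arsenite. Both ratios to antizyme were lower with arsenite in both genotypes, and in each case the treated null was the lowest library. The length trend for arsenite was −1.19 in both genotypes for Azin1, and −0.29 in wild type and −0.31 in the null for Oaz1. It therefore enters the size of the arsenite difference in the ratio of Azin1 to Oaz1. Antizyme protein also depends on a ribosomal frameshift that polyamines promote, which RNA levels do not show.

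**Figure D2:**
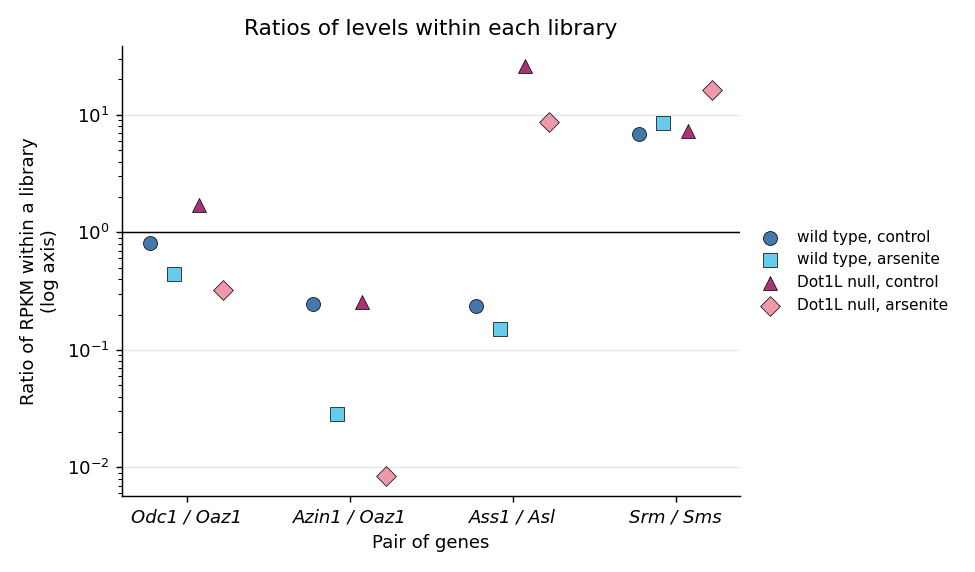
Ratio of the RPKM values of 4 pairs of genes within each library (log axis), 1 point per library; the line marks equal levels. Odc1 to Oaz1 ranges from 0.324 in the treated null to 1.71 in the untreated null, and Ass1 to Asl is below 1 in both wild-type libraries and above 1 in both null libraries.

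Of the enzymes that build spermidine and spermine, Amd1 passed 2-fold with arsenite in the null, and Srm and Sms passed it in no comparison as deposited. Amd1 (ENSMUSG00000075232, chromosome 10, 40287458 to 40302188), S-adenosylmethionine decarboxylase, was at 28.6 RPKM in untreated wild type, 16.9 with arsenite, 37.9 in the untreated null and 11.0 in the treated null. Both arsenite libraries were below both controls, an order whose share over all genes was not computed. Amd1 was 1.69-fold lower (1.55 to 1.84) with arsenite in wild type and 3.44-fold lower (3.12 to 3.80) in the null. The null difference of −1.69 passed the bound and was −1.10 without the length trend, whereas that in wild type was −0.72 and −0.17. Amd2, a near-identical copy of Amd1, reached no more than 0.0577 RPKM and the listed Amd1 pseudogenes were at 0, but reads of such copies may have been assigned to Amd1, so its level is uncertain.

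Srm (ENSMUSG00000006442, chromosome 4, 148591513 to 148594619), spermidine synthase, hardly differed between libraries. It was at 69.3 RPKM in untreated wild type, 74.0 with arsenite, 91.7 in the untreated null and 92.9 in the treated null. The null libraries were the higher pair, again an order whose share over all genes was not computed. The arsenite ratios were 1.07 (1.01 to 1.13) in wild type and 1.01 (0.962 to 1.07) in the null. The arsenite differences of 0.09 and 0.02 turned to −0.20 and −0.26 with the length trend removed. Between genotypes the ratio was 1.32 (1.28 to 1.36) in controls and 1.26 (1.17 to 1.35) with arsenite.

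Sms (ENSMUSG00000071708, chromosome X, 157443851 to 157492287), spermine synthase, was at 10.1 RPKM in untreated wild type, 8.77 with arsenite, 12.5 in the untreated null and 5.76 in the treated null. The null with arsenite was the lowest of the 4. The arsenite difference was −0.19 in wild type and −0.998 in the null, just inside the 2-fold bound. Sms is a gene of 6010 bases, and with the length trend removed both differences changed sign, to 0.97 and 0.16, and median centring alone turned the wild-type one to 0.37. The RNA ratio of Srm to Sms was 6.84, 8.44 and 7.34 in the first 3 of these libraries and 16.1 in the treated null. Srm has 1599 bases, and with the trend removed its null difference was −0.26 against 0.16 for Sms, so the direction of this ratio with arsenite depended on the length trend.

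Sat1 (ENSMUSG00000025283, chromosome X, 155213126 to 155216449), the acetyltransferase that starts polyamine breakdown and export, followed Odc1 most closely. It was at 27.3 RPKM in untreated wild type, 32.9 with arsenite, 49.9 in the untreated null and 15.6 in the treated null. As with Odc1, the untreated null was the highest and the treated null the lowest. Arsenite went with a 1.20-fold (1.12 to 1.29) higher level in wild type and a 3.19-fold (2.92 to 3.49) lower level in the null. The log2 differences were 0.26 and −1.61, or 0.65 and −1.20 without the length trend. Their difference was −1.87, and 2.01% of genes had a lower value. Between the treated libraries Sat1 was lower in the null at −1.03, a call lost after median centring, at −0.75, and without the length trend, at −0.67.

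Likeness between genes was measured as the distance between their log2(RPKM + 1) values over the 4 libraries, each gene centred on its mean. Odc1 and Sat1 were each other's nearest gene at a distance of 0.501. Amd1 was nearest to Odc1 at 0.572, Sms to Sat1 at 0.540, and Asl and Oaz1 to each other at 0.563. Ass1 was 4.99 from its nearest gene, Srm, and was the farthest from each of the other 9. With 4 libraries that differ in depth and length trend, these distances are a description only.

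Counted together, 0 of the 10 genes were at least 2-fold higher and 2 were lower with arsenite in wild type, Arg2 and Azin1. Over all genes tested 12.8% were called higher and 35.7% lower in that comparison. Arg2 entered it only through untreated wild type, the library where it is high. In the null 0 were higher, beside 15.2% of all genes, and 4 were lower, Odc1, Amd1, Sat1 and Azin1, beside 37.1%. The share lower in the null was close to that of all genes, so the count is no feature of this group. The median difference of the 10 genes was −0.15 in wild type and −0.97 in the null, against −0.56 and −0.53 over all genes. With the length trend removed 2 genes were higher and 2 lower in wild type, beside 15.8% and 15.4% of all genes, and 1 was higher and 4 lower in the null, beside 20.1% and 21.0%.

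**Figure D3:**
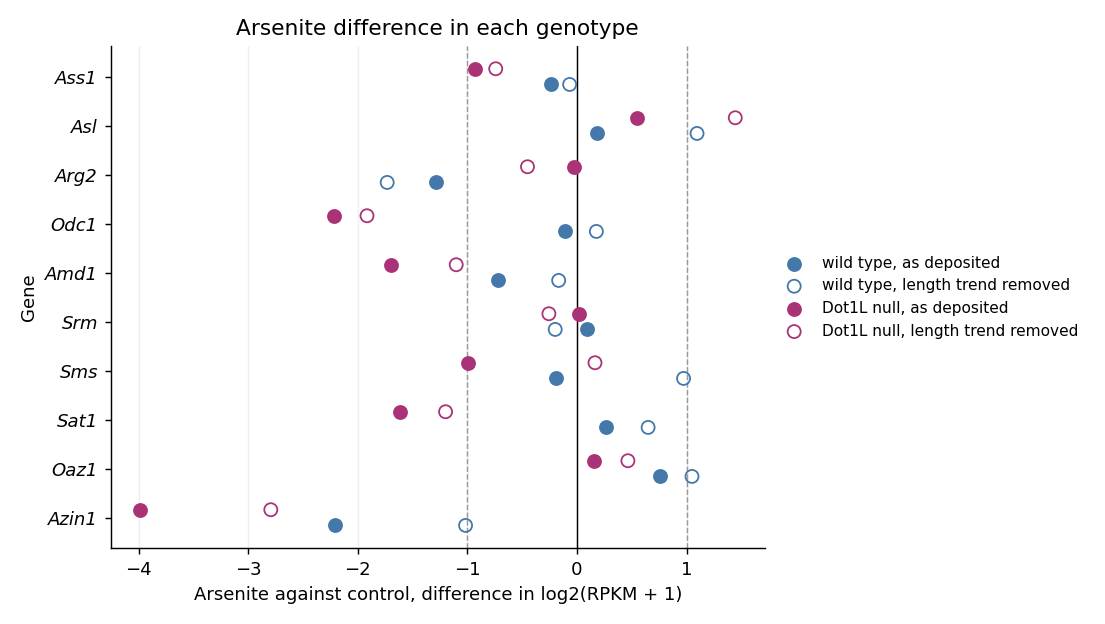
Difference in log2(RPKM + 1) between arsenite and control for each of the 10 genes, wild type in blue and Dot1L null in purple; filled points are the values as deposited, open points those with the length trend removed, and dashed lines mark 2-fold. Odc1, Amd1, Sat1 and Azin1 lie beyond 2-fold on the lower side in the null on both scales, and Sms crosses 0 when the trend is removed.

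Between the genotypes 1 gene was higher in the untreated null, Ass1, and 1 was lower, Arg2, where 6.45% of all genes were called higher and 14.7% lower. Arg2 was counted only through untreated wild type, here and in the difference of arsenite differences below. With arsenite Ass1 was higher and Odc1, Sat1 and Azin1 were lower, beside 8.75% higher and 16.9% lower over all genes. The null-minus-wild-type difference of the arsenite differences was at least 1 in Arg2, beside 12.1% of all genes, and at most −1 in Odc1, Sat1 and Azin1, beside 12.8%. It used all 4 libraries, each of which also enters the other comparisons, and was not tested against replicate error. It was positive for Asl and Arg2, at 0.36 and 1.26, and negative for the other 8, of which Srm at −0.07 lay next to the median of all genes, −0.06. With the length trend removed 3 genes were higher and 1 lower in the untreated null, beside 9.22% and 10.9% of all genes, and 1 was higher and 1 lower between the treated libraries, beside 12.4% and 9.03%. The null-minus-wild-type value was then at least 1 in 1 gene and at most −1 in 3, beside 11.4% and 12.2%.

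**Figure D4:**
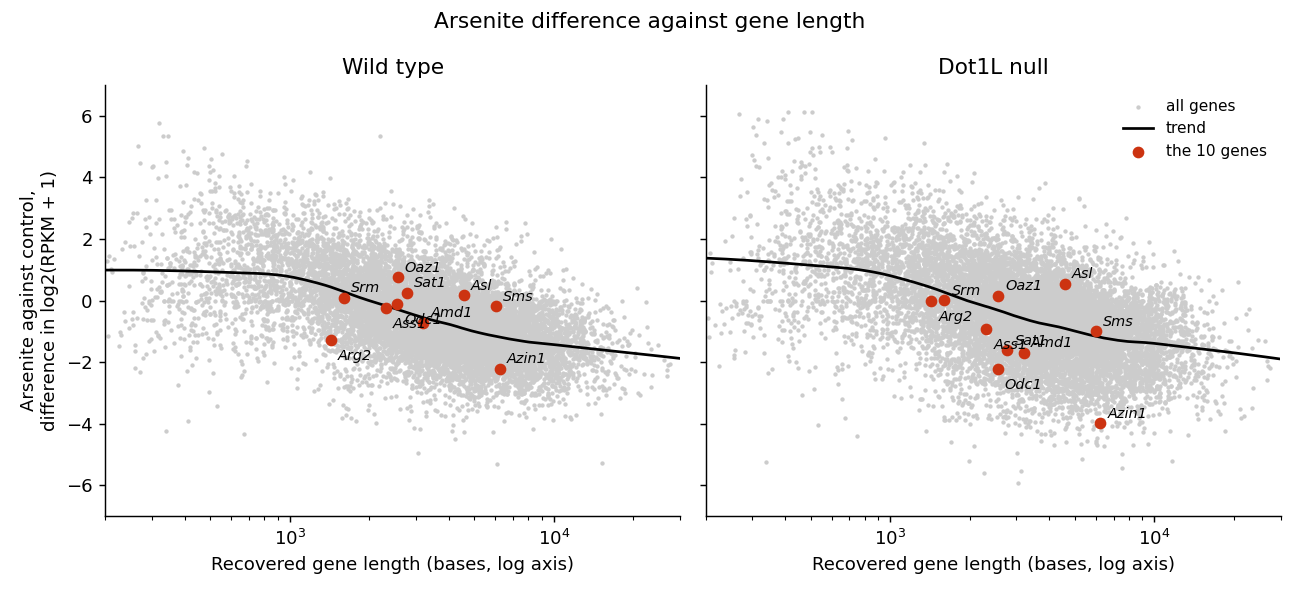
Difference in log2(RPKM + 1) between arsenite and control against recovered gene length (bases, log axis) in wild type and in the Dot1L null; grey points are all genes with a usable length, the line is the trend and red points are the 10 genes. Azin1 lies below the trend in both genotypes, while Sms lies on or above it and Odc1 lies near it in wild type and below it in the null.

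Other genes of these pathways were read from a list of 50, of which 49 had a row and 38 reached 1 RPKM in some library. With arsenite 4 were higher and 14 lower in wild type, beside 12.8% and 35.7% of all genes, with a median of −0.53. In the null 6 were higher and 15 lower, beside 15.2% and 37.1%, with a median of −0.58. Both medians were close to those of all genes. With the length trend removed the counts were 4 and 7 in wild type, beside 15.8% and 15.4%, and 7 and 11 in the null, beside 20.1% and 21.0%. Genes for the enzymes that liver uses in the urea cycle beside Ass1 and Asl were near 0. Otc and Nags were listed at 0 in all 4 libraries, and Cps1 and the liver arginase Arg1 reached no more than 0.0139 and 0.0753 RPKM. Slc25a15, the ornithine carrier of that cycle, was not near 0. It was at 6.77 RPKM in untreated wild type, 2.73 with arsenite, 5.41 in the untreated null and 2.76 in the treated null. Gatm, which begins creatine synthesis from arginine, reached no more than 0.164.

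Some genes for the import of arginine were among those far lower with arsenite. Slc7a1, the main cationic amino acid transporter, was at 85.1 RPKM in untreated wild type, 7.85 with arsenite, 119 in the untreated null and 2.81 in the treated null. It was 10.8-fold lower (10.0 to 11.7) with arsenite in wild type and 42.2-fold lower (37.3 to 48.0) in the null. With the length trend removed the differences were −1.97 and −3.67. Slc7a2, another cationic amino acid transporter, named here after its values were seen, was at 56.5 and 3.09 RPKM in wild type and at 51.5 and 1.96 in the null. It was 18.3-fold lower (16.3 to 20.5) and 26.2-fold lower (22.9 to 30.1) with arsenite, or −2.42 and −2.79 with the length trend removed. Slc7a2 had the lowest arsenite difference of the 38 genes in wild type, and Slc7a1 the lowest in the null, as deposited.

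Among enzymes that consume arginine, Nos2, the inducible nitric oxide synthase, was at 4.82 RPKM in untreated wild type and between 0.301 and 0.616 in the other 3 libraries. Cd14, one of the macrophage markers, was at 21.1 RPKM in untreated wild type, 11.6 with arsenite, 1.16 in the untreated null and 1.71 in the treated null, while Lyz2 and Csf1r of the same list were higher in the untreated null and Cd68 was at 2.59 and 2.02 in the untreated libraries. The part of these markers in the Nos2 difference was not tested. Ddah1, which degrades methylated arginines that inhibit these synthases, was 11.4-fold lower (10.7 to 12.3) in the untreated null than in untreated wild type, at 3.34 against 38.3 RPKM. With arsenite it was at 13.8 in wild type and 4.69 in the null.

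Enzymes that link ornithine to proline and glutamate differed as follows. Oat, ornithine aminotransferase, was at 59.3 RPKM in untreated wild type, 23.1 with arsenite, 32.6 in the untreated null and 5.82 in the treated null. Aldh18a1, which makes the precursor of proline and ornithine from glutamate, was at 97.8, 33.1, 141 and 15.5 in the same order. Both were more than 2-fold lower with arsenite in each genotype, although Aldh18a1 in wild type was at −0.75 once the length trend was removed. Pycr1, the last enzyme of proline synthesis, was at 12.6 and 16.9 RPKM in wild type and at 17.8 and 6.44 in the null, so that its arsenite differences were 0.40 and −1.34.

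On the methionine side, which supplies the aminopropyl groups, Mat2a makes S-adenosylmethionine. It was at 158 RPKM in untreated wild type, 38.7 with arsenite, 146 in the untreated null and 25.2 in the treated null, 4.09-fold (3.86 to 4.34) and 5.78-fold (5.40 to 6.20) lower. Mtap, which recycles the methylthioadenosine that spermidine and spermine synthesis release, was at 49.4, 27.04, 25.5 and 8.58 in the same order. Mat2a was past 2-fold in both genotypes with and without the length trend, and Mtap in neither once the trend was removed.

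The second antizyme, Oaz2, was at 25.2 RPKM in untreated wild type, 44.9 with arsenite, 35.2 in the untreated null and 76.4 in the treated null. It was 1.78-fold (1.68 to 1.89) and 2.17-fold (2.08 to 2.27) higher with arsenite, the opposite side from Azin1. Of the 2 oxidases that turn spermine and spermidine back, Smox was at 6.57, 5.33, 12.3 and 8.52 RPKM in that order, and Paox at 7.38, 9.52, 2.12 and 5.39. Paox was 3.48-fold lower (3.01 to 4.03) in the untreated null than in untreated wild type.

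Eif5a, the translation factor that carries hypusine, an amino acid made from spermidine, was the most abundant gene of the list in 3 of the 4 libraries. It was at 227 RPKM in untreated wild type, 956 with arsenite, 397 in the untreated null and 885 in the treated null. It was 4.21-fold (4.14 to 4.28) higher with arsenite in wild type and 2.23-fold (2.20 to 2.26) higher in the null. Eif5a has processed pseudogenes, and reads shared with them would make its level uncertain. The enzymes that make hypusine were nearly level: Dhps ranged from 20.1 to 23.3 RPKM and Dohh from 17.6 to 23.5 over the 4 libraries.

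Myc, the transcription factor for which Odc1 is a classic target gene, was at 128 RPKM in untreated wild type, 23.0 with arsenite, 150 in the untreated null and 6.66 in the treated null. It was 5.56-fold lower (5.15 to 6.01) with arsenite in wild type and 22.5-fold lower (19.7 to 25.8) in the null. In wild type Odc1 was near its control level in the library where Myc was lower, and in the null both were lower. The E-box letters were not in the printed 185 bases upstream of Odc1. That stretch ends where the annotated gene begins, so it says nothing of letters within the gene. The part of Myc in the Odc1 difference was not tested.

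**Figure D5:**
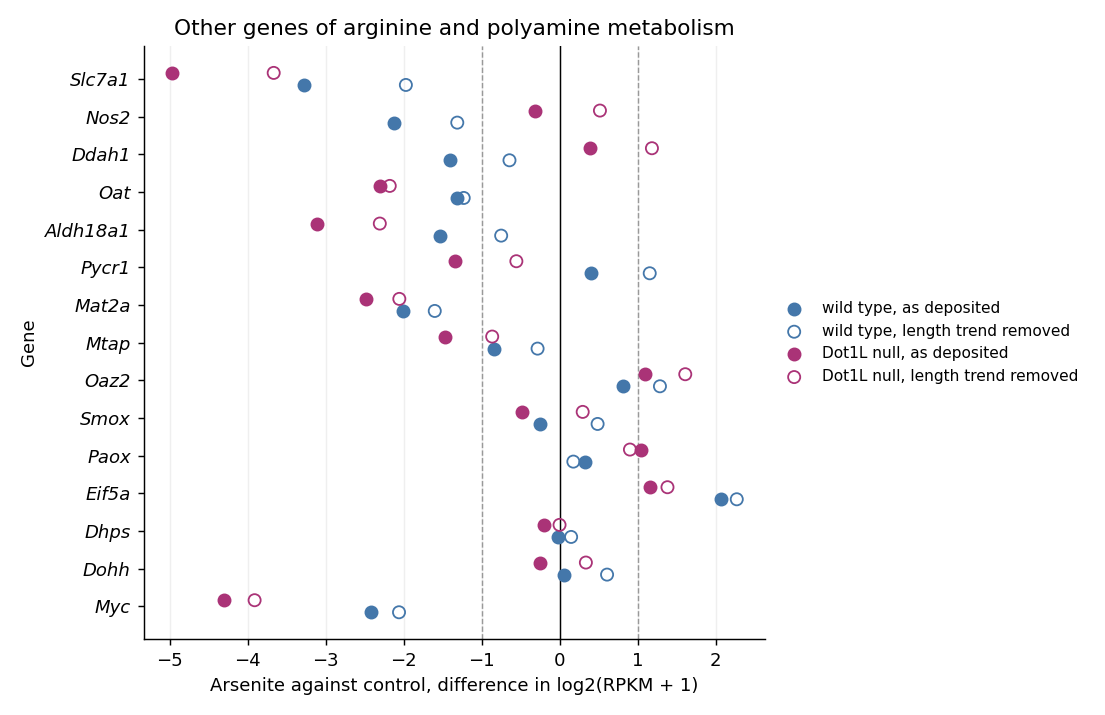
Difference in log2(RPKM + 1) between arsenite and control for 15 other genes of arginine and polyamine metabolism, wild type in blue and Dot1L null in purple; filled points are as deposited, open points have the length trend removed, and dashed lines mark 2-fold. Slc7a1, Oat, Mat2a and Myc are beyond 2-fold on the lower side in both genotypes on both scales, and Eif5a is beyond it on the higher side.

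In the untreated genotype comparison 0 of the 38 other genes were higher in the null and 4 were lower, Nos2, Ddah1, Paox and Azin2, beside 6.45% and 14.7% of all genes. Nos2 reached 1 RPKM only in untreated wild type, so it is among the 38 only through the library where it is high. Azin2, a second antizyme inhibitor named here after its values were seen, was at 6.27 RPKM in untreated wild type and 2.32 in the untreated null. With arsenite it was at 2.29 in wild type and 8.56 in the null, the opposite order to Azin1. Its call in the untreated comparison, −1.13, was lost after median centring, at −0.96, and without the length trend, at −0.90. With arsenite 1 of the 38 was higher in the null, Azin2, and 10 were lower, among them Oat, Pycr1, Mtap, Slc7a1 and Myc, beside 8.75% and 16.9% of all genes. The 10 became 4 after median centring, where no share of all genes was computed. With the length trend removed they became 5, beside 9.03% of all genes, and Pycr1 at −0.91 and Slc7a1 at −0.93 were then not called.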

How the data were processed

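RNA-seq of 4 libraries, 1 per group, was used. The authors deposited RPKM values for 37224 Ensembl genes; TopHat, HTSeq, Bowtie and deepTools and the build mm10 are named without roles or versions in the submitters' processing notes. The extraction text describes rRNA removal and strand-specific libraries, per the labels' protocols, but the molecule label says polyA RNA. Which annotation and strand setting the counts used is not given in the sources used here. Of the IDs, 35449 could be paired with a symbol. Positions are RefSeq GRCm38, the assembly also called mm10.

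Low RPKM values step by single reads. The reads each library was divided by were taken from small RNA genes of known span, and the shortest gene length that made all values whole (relative tolerance 1e-11) gave reads and lengths; for 359 of 525 small RNA genes the length equalled the span. A length found this way may be a whole fraction of the true one. Differences used a pseudocount of 1 RPKM, genes with at least 1 RPKM in any library and no further scaling. Ratios have exact 95% intervals (Clopper-Pearson, conditional on the summed reads), which cover counting error only, treating reads as independent molecules. The length trend was a lowess (fraction 0.3) over genes of at least 200 bases, with statsmodels 0.14.6. Steps were tested on simulated data. The alternatives were pseudocounts of 0.1 and 5, no filter or 5 RPKM, median centring, 75th percentile scaling, length trend removal and a 1.5-fold bound. Genes beyond the 10 were named by role, except Otc, Nags, Cps1, Slc25a15, Slc7a2, Slc7a3 and Azin2, named after their values were seen. The members and lists were chosen with earlier results of these data known.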

Additional observations from a re-analysis of the deposited data

Results flagged for a closer look

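Only the genes of arginine and polyamine metabolism named above that reached 1 RPKM in some library were considered here. Arsenite went with opposite signs in the 2 genotypes for 5 of them, each from 1 library per group, and the difference was not tested. The marker genes were left out, among which Vim and Cd14 were also lower with arsenite in wild type and higher in the null. Sat1 was higher with arsenite in wild type and lower in the null, a difference of −1.87 on the log2 scale, null minus wild type. Pycr1 did likewise, at −1.74. Ddah1 was lower in wild type and higher in the null, at 1.80. Azin2 was likewise lower in wild type and higher in the null, at 2.67. These 4 kept opposite signs after median centring and with the length trend removed. Dohh was higher in wild type and lower in the null, at −0.31, but only as deposited: both of its differences were positive after median centring, at 0.61 and 0.28, and with the length trend removed, at 0.61 and 0.33.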

How the results depend on the processing

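With 1 library per group no library could be left out, and no paired analysis was possible because no group has a second library. The arsenite differences of Odc1, Amd1, Sat1 and Azin1 in the null, and both genotype differences of Ass1, kept their direction under every alternative run. Sign differed from the reported value in 7 of 50 gene values after median centring, in 7 of 50 after scaling to the 75th percentile and in 8 of 50 with the length trend removed, none of them past 2-fold as reported. Counts of the 10 genes that moved by more than 1.5 times were as follows. With a pseudocount of 5 RPKM, 1 was lower with arsenite in wild type, 0 lower in the untreated null against untreated wild type, 1 lower in the treated null against treated wild type, and 0 had a positive difference of arsenite differences. With a filter at 5 RPKM, which left out Arg2, these were 1, 0 and, for the last, 0. After median centring 1 was higher and 1 lower with arsenite in wild type, 1 higher in the null, 3 higher in the untreated null and 1 lower between the treated libraries. After 75th percentile scaling 1 was higher with arsenite in wild type, 1 in the null, 2 in the untreated null, and 1 lower between arsenite libraries. With the length trend removed these were 2, 1, 3 and 1. At 1.5-fold 1 was higher with arsenite in wild type, 3 were higher in the untreated null, and 7 had a negative difference of arsenite differences. Smaller moves were 5 lower in the null and 4 negative differences of differences at a pseudocount of 0.1, 2 of the latter at 5, and at 1.5-fold 3 lower in wild type, 6 in the null and 4 between treated libraries. Shares of all genes were computed only for the reported setting and with the length trend removed. Counts under the other settings therefore cannot be set against all genes and describe these genes alone. Apart from the filter, the cause was not tested. Depth limits Arg2 and wild-type Ass1 most.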

Other observations

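The neighbours of Ass1 on chromosome 2 were looked at after its values had been seen. Within 500 kb of its span 15 other protein-coding genes had a row, and 11 of them reached 1 RPKM in some library. In the untreated null 0 of these 11 were at least 2-fold higher than in untreated wild type and 2 were lower, Usp20 and Fnbp1. Over all genes 6.45% were higher and 14.7% lower. The log2 differences of the 11 lay between −1.34 and 0.09 against 5.66 for Ass1. The adjoining Hmcn2 was at 0.576 RPKM in untreated wild type and 0.575 in the untreated null. With arsenite it was at 0.327 in wild type and 1.503 in the null, a log2 difference of 0.92. It reached 1 RPKM only in the treated null, so it is among the 11 only through the library where it is high. All the other neighbours past 1 RPKM were lower in the treated null. Exosc2 at −2.38, BC005624 at −2.20 and Usp20 at −1.05 were at least 2-fold lower there, beside 16.9% of all genes. Fubp3, on the other side, was at 26.99 and 28.8 in the untreated libraries.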
